A study of Rattus norvegicus with 59 samples.

Results

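Lungs of rats that had breathed crystalline silica were compared with lungs of rats that had breathed air, 3 months after the exposure ended. The samples were chosen by their labelled time point: 5 silica and 5 air libraries at 3 months, 10 of the 59 libraries of the series. The genes were all 2887 complete entries of the deposited expression table. Both groups were male Fischer 344 rats (F344/DuCrl), 3 months of age when purchased. The silica group received 15 mg/m3 for 6 h a day over 5 days in a whole-body chamber, and the air group the same schedule at 0 mg/m3. RNA came from a piece of lung, 1 library per rat, and the sources used here do not name the lobe. The remaining libraries belong to the same 2 treatments at 1, 6, 9, 12 and 18 months, each time with an air group of its own.

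Inhaled silica crystals settle in the alveoli, where macrophages engulf them. The crystals damage lysosomes, the digestive compartments of the cell, and start inflammation that draws in neutrophils and further macrophages. Alveolar type 2 cells, which make and recycle surfactant, enlarge and multiply in silica-exposed rat lung, and fibrosis can follow.

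The table held part of the genome: of 2058 entries matched to a RefSeq gene name, 2043 (99.3%) lie on rat chromosome 1, and genes elsewhere were not analysed here. Values are FPKM, sequenced fragments corrected for transcript length and for the size of the library. Tests covered the 1278 entries with FPKM 1 or more in 4 or more of the 59 libraries, and the other 1609 were not tested. The FPKM of a library, without the single entry LOC102553223, summed to 14619 to 14978 in silica and to 12807 to 15796 in air, a ratio of means of 1.08 (exact two-sided permutation p = 0.0952, n = 5 and 5, smallest p possible 0.00794). FPKM carry no depth of their own. A relative depth was inferred from entries detected in few libraries, where a single fragment gives a smaller FPKM at greater depth. It was 0.813 to 1.02 in silica and 0.748 to 1.00 in air (exact two-sided permutation p = 0.421). Across genes, log2 values of 2 libraries of a group correlated at r = 0.920 to 0.973 over 20 pairs, none identical. Among lung markers, the club cell gene Cyp2f4 averaged 7.93 ± 2.39 FPKM in silica and 8.71 ± 3.11 in air (SD, n = 5), and the type 2 cell genes Napsa and Lpcat1 were among the more abundant entries, with values given further on. Scgb1a1 and Ctsd were not analysed here. Silica replicate 5 and air replicate 1 stood apart in muscle and globin genes, respectively, with values given beside those genes.

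At 3 months, 233 genes (18.2% of those tested) differed between silica and air at a limma adjusted p below 0.05. Of these, 203 (15.9%) were higher in silica and 30 (2.35%) were lower. Rises were larger than falls: 14 genes rose by at least 1 on the log2 scale and 52 by 0.5 to 1, whereas 3 genes fell by at least 0.5 and 1 of these by at least 1. The median change was 0.38 among the higher and -0.28 among the lower genes. The silica and air libraries did not overlap in 162 tested genes (12.7%), above air in 11% and below it in 1.72%, and 123 of the higher and 12 of the lower genes were among them. At an unadjusted p below 0.05 there were 400. Of 216 distinct tested genes on 31 lists of pathway and cell type genes, 55 were higher (25.5%, beside 15.9% of all tested genes) and 7 lower. The lists were chosen with earlier results of these data known, so the larger share is not an independent result. This holds for every list count and median given below. The entries with the largest fitted changes were not stable. Trnae-cuc, a transfer RNA entry, was at 634, 0, 235, 953 and 467 FPKM in the silica lungs and 113, 0, 0, 0 and 447 FPKM in the air lungs and LOC102553223 at 1112, 13.2, 75.2, 12.6 and 17114 FPKM in the silica lungs and 117, 12.4, 5.39, 10.6 and 4.00 FPKM in the air lungs, both with overlap. Trnae-cuc was not called without any 1 of silica lungs 1, 3, 4 and 5 and air lungs 2, 3 and 4, and LOC102553223 not without silica replicate 1 or 5 (highest adjusted p 0.154 and 0.115).

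The balance of rises and falls depended on how libraries were scaled. The change was above 0 in 62.5% of all tested genes, with a median of 0.07, and 87.1% of called genes were higher. After each library was centred on its median, 112 genes (8.76%) were higher and 121 (9.47%) lower, so that 48.1% of called genes were higher. Quantile normalization gave 106 higher (8.29%) and 132 lower (10.3%), a share of 44.5%. The median change over all genes was then -0.02 and -0.03. No gene called higher as deposited was called lower under either rescaling. Under all 3 scalings, 99 genes were higher and 30 lower, and 77 genes were lower after both rescalings without being called as deposited. Leaving out silica lungs 1, 2 and 4 and air lungs 2, 3 and 4, 1 at a time and numbered by replicate, reduced the 30 lower genes to 18, 14, 18, 19, 16 and 16, in that order. In bulk lung, more cells of a type and more RNA per cell cannot be told apart, and this holds for all levels given here.

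**Figure D1:**
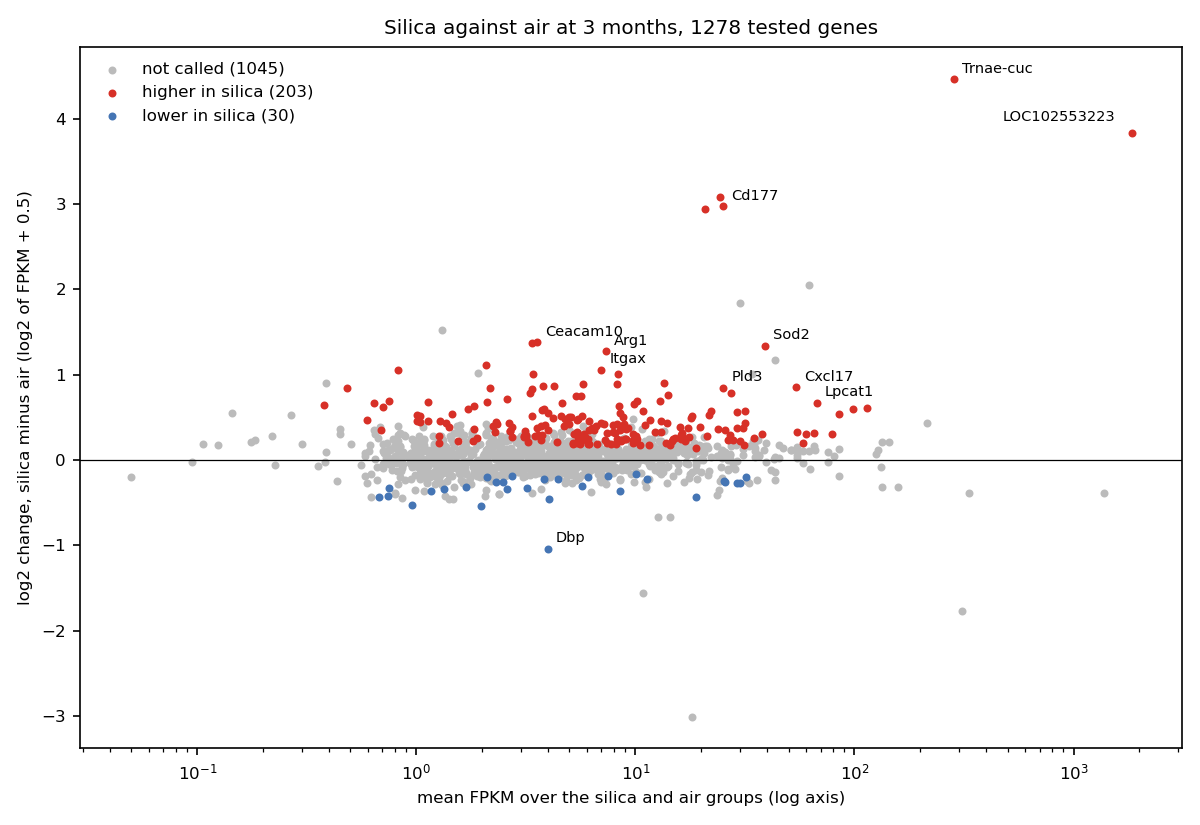
Log2 change at 3 months, silica minus air, on the scale of log2(FPKM + 0.5), against the mean FPKM of both groups on a log axis, with 1 point per tested gene. Red points mark the 203 genes called higher and blue points the 30 called lower. The changes reach further above 0 than below it, and the 2 entries at the upper right, Trnae-cuc and LOC102553223, overlap between groups.

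Receptors of the myeloid cell surface, the proteins by which neutrophils and macrophages sense and adhere, were the list with the most called genes. Of 21 tested members of this list, 10 were higher and 0 lower, beside 15.9% and 2.35% of all tested genes. The median change was 0.32 beside 0.07 over all tested genes, and 10 were higher after each rescaling. Cd177, a surface glycoprotein of neutrophils, stood at 50.4, 45.1, 47.4, 43.6 and 38.6 FPKM in the silica lungs and 5.32, 4.98, 4.04, 5.58 and 6.73 FPKM in the air lungs, with values in order of replicates 1 to 5 here and below. Every silica lung was far above every air lung. The log2 change was 2.98 ± 0.23 (SE, limma adjusted p = 2.6e-15). The placeholder entries LOC103691058 and LOC100909700 had changes near that of Cd177, at 3.08 and 2.94, and LOC103689942 one near that of Ceacam10, at 1.37 beside 1.38. Whether these entries share reads with the named genes was not tested.

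Plaur, the receptor of urokinase on migrating leukocytes, was at 5.45, 4.82, 6.03, 4.55 and 4.22 FPKM in the silica lungs and 2.83, 2.46, 1.99, 2.55 and 2.77 FPKM in the air lungs. All 5 silica values lay above all 5 air values, and the change was 0.87 ± 0.17 (SE, limma adjusted p = 0.000163). Cd33, an inhibitory sialic acid receptor of myeloid cells, had values of 6.02, 6.23, 6.69, 4.96 and 4.20 FPKM in the silica lungs and 2.47, 2.64, 2.25, 3.28 and 3.69 FPKM in the air lungs. These did not overlap either, although silica replicate 5 and air replicate 5 came close, and the change was 0.86 ± 0.17 (SE, limma adjusted p = 0.000196). Tyrobp, the signalling adaptor shared by many activating myeloid receptors, was abundant at 109.5, 102, 93.2, 102 and 96.7 FPKM in the silica lungs and 70.8, 69.4, 66.7, 71.5 and 66.6 FPKM in the air lungs. Its air values were tightly grouped and its change was 0.54 ± 0.14 (SE, limma adjusted p = 0.00365). Lilrb4, an inhibitory receptor, was at 16.8, 17.7, 15.3, 15.8 and 14.5 FPKM in the silica lungs and 8.65, 9.59, 12.8, 9.67 and 8.24 FPKM in the air lungs, with a change of 0.70 ± 0.19 (SE, limma adjusted p = 0.00732). Oscar, an activating collagen receptor, rose by 0.69, Fcar, a receptor for IgA, by 0.62, Siglec8 by 0.59 and Igsf6 by 0.47, the last with silica replicate 5 just under air replicate 5. Lilrb3, a relative of Lilrb4, was not called (0.22 ± 0.13, limma adjusted p = 0.271), and neither was Siglec5 (0.14 ± 0.10, 0.348).

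Receptors for chemoattractants and danger signals were the next group. Of 9 tested genes of the complement and chemoattractant list, 5 were higher and 0 lower, beside 15.9% and 2.35% of all tested genes. In all 5 every silica lung was above every air lung, which held for 11% of all tested genes. The median change was 0.46. After each rescaling 5 were higher and 1 lower. C5ar1, the main receptor for the complement fragment C5a, was at 8.11, 7.29, 7.82, 8.23 and 6.29 FPKM in the silica lungs and 3.60, 3.02, 3.01, 4.79 and 5.19 FPKM in the air lungs. Every silica lung was above every air lung, and the change was 0.89 ± 0.14 (SE, limma adjusted p = 7.04e-06). C5ar2, the second C5a receptor, which does not couple to G proteins, was at 7.05, 7.49, 8.01, 6.44 and 5.18 FPKM in the silica lungs and 4.02, 4.47, 3.23, 3.97 and 3.46 FPKM in the air lungs, again without overlap, and rose by 0.75 ± 0.11 (SE, limma adjusted p = 1.01e-06). P2ry2, a receptor for extracellular ATP and UTP, was at 12.2, 11.5, 12.0, 10.8 and 10.02 FPKM in the silica lungs and 4.97, 5.53, 4.52, 5.54 and 6.49 FPKM in the air lungs. The silica values were grouped above all air values, with a change of 1.00 ± 0.15 (SE, limma adjusted p = 2.06e-06). P2ry6, a receptor for UDP, rose by 0.46. Cxcl17, a chemokine made by airway and glandular epithelium, was at 75.4, 66.8, 80.4, 64.6 and 60.9 FPKM in the silica lungs and 38.9, 38.4, 33.0, 40.1 and 40.3 FPKM in the air lungs. The silica values spread more widely than the air values and lay above all of them, and the change was 0.86 ± 0.10 (SE, limma adjusted p = 1.3e-08).

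The list of leukocyte integrins and partners had 8 tested genes. Itgax, Itgam, Itgal and Itgad encode alpha chains of adhesion receptors that pair with the CD18 chain, and the others were Coro1a, Spn, Cd37 and Ilk. Of the 8 genes 3 were higher and 0 lower, beside 15.9% and 2.35% of all tested genes, and Itgad was not called. The list median was 0.20, and after each rescaling 2 were higher. Itgam, the alpha chain of complement receptor 3, was at 6.17, 6.07, 5.92, 5.42 and 5.24 FPKM in the silica lungs and 3.27, 3.53, 3.80, 3.36 and 3.22 FPKM in the air lungs. The groups did not overlap, and the change was 0.67 ± 0.20 (SE, limma adjusted p = 0.0165), smaller than that of Itgax (CD11c, 1.06). Itgal, the alpha chain of LFA-1 on lymphocytes and other leukocytes, rose by 0.26 ± 0.09 (SE, limma adjusted p = 0.0345), with overlap between groups. It was not called after centring (0.17, adjusted p = 0.12) or quantile normalization (0.12, 0.30), nor without any 1 of silica lungs 1, 2 and 3 and air lungs 1 and 2 (highest adjusted p 0.0859).

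**Figure D2:**
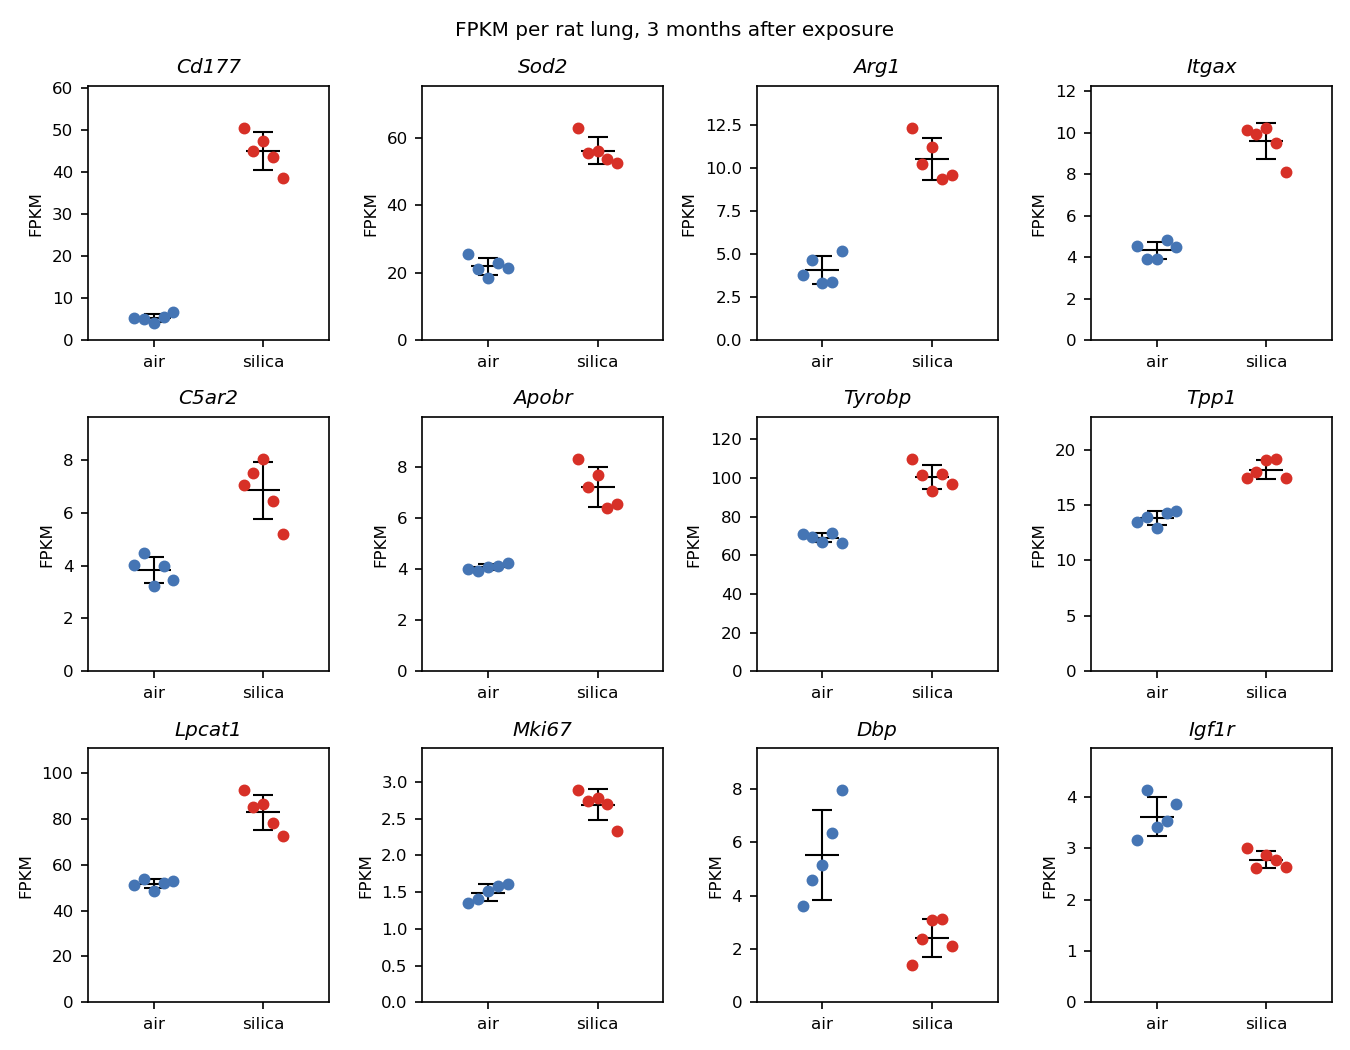
FPKM of 12 named genes in each of the 5 air (blue) and 5 silica (red) libraries at 3 months, with the group mean and SD as a black line and bars. Each axis starts at 0. In 10 genes every silica library is above every air library, and for Dbp and Igf1r every silica library is below.

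Genes of lysosomes and phagosomes were higher in 7 of 10 tested and lower in 0, beside 15.9% and 2.35% of all tested genes. In all 7 every silica lung was above every air lung, which held for 11% of all tested genes. The median change was 0.36, and 6 remained called higher under each rescaling. Tpp1, a lysosomal peptidase, was at 17.4, 17.9, 19.1, 19.1 and 17.4 FPKM in the silica lungs and 13.5, 13.9, 12.9, 14.3 and 14.4 FPKM in the air lungs. The gap between the highest air and the lowest silica lung was wider than the spread of the air group, and the change was 0.39 ± 0.07 (SE, limma adjusted p = 4.16e-05). Ctsc, the cathepsin that activates neutrophil granule proteases, was at 65.4, 59.6, 63.5, 61.7 and 55.8 FPKM in the silica lungs and 51.3, 50.4, 44.3, 50.2 and 46.8 FPKM in the air lungs, with a change of 0.33 ± 0.07 (SE, limma adjusted p = 0.00102). Hps5, a subunit of a complex needed for lysosome-related organelles, was at 3.29, 3.22, 3.14, 3.18 and 2.92 FPKM in the silica lungs and 2.05, 2.43, 2.27, 2.66 and 2.03 FPKM in the air lungs. Its change was 0.39 ± 0.06 (SE, limma adjusted p = 1.45e-06), the smallest adjusted p of the list. Prcp, a lysosomal carboxypeptidase, rose by 0.57 ± 0.12 (SE, limma adjusted p = 0.000663), Cln3, a lysosomal membrane protein, by 0.40 ± 0.09 (SE, limma adjusted p = 0.00128), and Igf2r, which carries enzymes to lysosomes, by 0.28 ± 0.07 (SE, limma adjusted p = 0.00271). Igf2r missed the threshold after quantile normalization (adjusted p = 0.055). Tmem86a, a lysoplasmalogenase, rose by 0.64 ± 0.21 (SE, limma adjusted p = 0.0322), but was not called after centring (adjusted p = 0.058) or without any 1 of silica lungs 3 and 4 and air lungs 3 and 5 (highest adjusted p 0.0813). The other tested members, Smpd1, Pdcd6 and Rab38, were not called, and 1 change of the list was below 0. Pld3 and Rnaset2 are outside the list and were named for being among the 20 largest rises. Pld3, a lysosomal exonuclease, was at 36.2, 33.0, 33.7, 32.6 and 27.2 FPKM in the silica lungs and 19.5, 17.0, 15.6, 18.2 and 18.8 FPKM in the air lungs, without overlap, and rose by 0.85 ± 0.17 (SE, limma adjusted p = 0.00025). Rnaset2, a lysosomal ribonuclease, rose by 0.76 ± 0.19 (SE, limma adjusted p = 0.00417).

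Because lysosomal genes share a known promoter element, the palindrome TCACGTGA recognised by the factor TFEB and its relatives, promoters of the list were searched. The 250 bases before the annotated start (RefSeq, GRCr8) were read on both strands. TCACGTGA was found in 3 of the 9 list members with a window, Hps5, Cln3 and Igf2r, all higher in silica. It was found in 0.657% of all 33469 windows of that length, in 17 of 882 tested genes with a window (1.93%) and in 3 of 148 higher genes (2.03%). The stretches that hold it follow, 5′ to 3′ on the strand of the gene, with each copy in capitals. They lie at chr1:106457324-106457431 (minus strand) for Hps5, chr1:190597930-190598018 (minus strand) for Cln3 and chr1:50526702-50526809 (plus strand) for Igf2r, all GRCr8.
Hps5: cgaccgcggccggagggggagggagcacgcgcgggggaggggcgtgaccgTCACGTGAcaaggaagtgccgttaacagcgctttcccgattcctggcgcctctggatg
Cln3: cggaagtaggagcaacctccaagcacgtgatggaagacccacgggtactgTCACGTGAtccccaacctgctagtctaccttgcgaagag
Igf2r: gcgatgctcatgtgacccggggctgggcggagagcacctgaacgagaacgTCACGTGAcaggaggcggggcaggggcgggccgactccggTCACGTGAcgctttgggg
The copy lies 161 to 154 bases before the start in Hps5 and 39 to 32 bases before it in Cln3, while Igf2r holds 2 copies in the stretch shown, the first at 126 to 119 bases. The other motifs searched were CACGTG, which TCACGTGA contains, TTATGTAA, an NF-kB element, GAGGAAGT, TTGCNNAA, TGACTCA and TGACNNNGC, of which the last 2 can overlap in 1 site. In that order they were in 5.59, 0.828, 1.30, 2.04, 9.22, 4.05 and 10.1% of all windows. Among tested genes with a window the shares were 9.98, 0.794, 1.59, 1.81, 9.18, 3.97 and 12.2%. Among higher genes they were 12.2, 0.676, 0, 2.70, 10.1, 5.41 and 9.46%. Other motifs were in at most 2 of the 9 lysosome windows, apart from CACGTG in the same 3. A match describes the letters of the window and no binding, and the absence of a match says nothing of the factor.

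Of 21 genes on the alveolar type 2 list, 3 were tested and the others were not analysed here. All 3 were higher in silica, beside 15.9% of all tested genes, and Lpcat1 and Napsa were abundant. Lpcat1, the acyltransferase that makes surfactant phosphatidylcholine, was at 92.3, 84.9, 86.3, 78.2 and 72.6 FPKM in the silica lungs and 51.2, 53.7, 48.5, 52.0 and 53.0 FPKM in the air lungs. Every silica lung was above every air lung, and the change was 0.67 ± 0.10 (SE, limma adjusted p = 1.64e-06). Napsa, the aspartic protease that matures surfactant protein B, was at 126, 122, 124, 119 and 101 FPKM in the silica lungs and 71.5, 74.3, 72.5, 79.9 and 91.4 FPKM in the air lungs. Air replicate 5 and silica replicate 5 came closest without overlapping, and the change was 0.60 ± 0.11 (SE, limma adjusted p = 8.74e-05). Cebpa, a transcription factor of type 2 cells and of myeloid cells, was at 13.7, 14.4, 17.2, 16.7 and 13.7 FPKM in the silica lungs and 12.4, 10.4, 8.90, 10.2 and 12.7 FPKM in the air lungs, with a change of 0.46 ± 0.10 (SE, limma adjusted p = 0.00111). All 3 remained called under both rescalings and without any 1 library. The single tested gene of the type 1 list, Prkcdbp (cavin-3), was at 12.4 ± 0.868 FPKM in silica and 13.9 ± 1.65 FPKM in air (SD, n = 5) and was not called (-0.16 ± 0.10 (SE, limma adjusted p = 0.29)).

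A further list held sodium pump regulators and sodium channel genes, with other genes such as Kcnk6, Prss8 and Spint2. Of 11 tested sodium pump regulators and channel genes, 5 were higher and 0 lower, beside 15.9% and 2.35% of all tested genes. After centring 5 were higher and after quantile normalization 4. The list median was 0.12 beside 0.07 over all tested genes, and 0.03 after each rescaling. The change was below 0 in 4 of the 11. Fxyd3, a regulator of the sodium pump, was at 34.9, 36.3, 42.5, 30.8 and 29.1 FPKM in the silica lungs and 20.8, 20.7, 18.8, 20.4 and 18.5 FPKM in the air lungs. The groups did not overlap, and the change was 0.78 ± 0.15 (SE, limma adjusted p = 0.000149). Fxyd5, another pump regulator, rose by 0.52 ± 0.14 (SE, limma adjusted p = 0.00885). Prss8, the channel-activating protease prostasin, rose by 0.38 ± 0.08 (SE, limma adjusted p = 0.000663), and Spint2, an inhibitor of such proteases, by 0.30 ± 0.07 (SE, limma adjusted p = 0.000858), although Spint2 was not called after quantile normalization (0.14, adjusted p = 0.17). Kcnk6, a potassium channel, rose by 0.43 ± 0.09 (SE, limma adjusted p = 0.000858). The sodium channel subunits themselves were not called: Scnn1b changed by 0.12 ± 0.11 (adjusted p = 0.468) and Scnn1g by -0.01 ± 0.09 (0.965). On the list of airway and surface epithelium genes, 6 of 12 tested were higher and 0 lower, beside the same 15.9% and 2.35% of all tested genes. After centring, however, 4 were higher and 1 lower, and after quantile normalization 3 and 1. The 6 include Cxcl17, Prss8, Spint2 and Kcnk6, and also Capn5, a calpain (0.21 ± 0.06 (SE, limma adjusted p = 0.0189)), and Folr1, a folate receptor (0.69 ± 0.24 (SE, limma adjusted p = 0.0384)). Capn5 was not called after either rescaling or without silica lung 3 or air lung 3, and Folr1 not after either rescaling or without any 1 of silica lungs 2, 3 and 4 and air lungs 2, 3 and 4 (highest adjusted p 0.0668 and 0.11).

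Genes of oxidant defence and iron handling included the mitochondrial superoxide dismutase gene Sod2, at 62.7, 55.5, 55.9, 53.7 and 52.4 FPKM in the silica lungs and 25.6, 21.2, 18.5, 22.8 and 21.4 FPKM in the air lungs. All 5 silica values were more than 2 times the air mean, and the change was 1.34 ± 0.15 (SE, limma adjusted p = 3.07e-09). Ftl1, the ferritin light chain that stores iron, was at 139, 147, 143, 139.7 and 119.8 FPKM in the silica lungs and 93.5, 83.2, 85.3, 92.1 and 96.2 FPKM in the air lungs. The groups did not overlap and the change was 0.61 ± 0.16 (SE, limma adjusted p = 0.00584), which quantile normalization reduced to 0.32 (adjusted p = 0.20). Ucp2, a mitochondrial carrier, rose by 0.43 ± 0.12 (SE, limma adjusted p = 0.0114) but was not called after quantile normalization (adjusted p = 0.086). Hpx, the haem scavenger hemopexin, was at 2.13, 2.43, 3.65, 2.49 and 2.93 FPKM in the silica lungs and 0.895, 0.886, 1.48, 0.832 and 1.40 FPKM in the air lungs. These groups did not overlap, yet the gene did not pass the test (1.02 ± 0.43 (SE, limma adjusted p = 0.0895)). Its SE rests on the spread within all 12 groups of the fit, not only the groups shown. Of 9 tested genes on this list, which also holds Esr1 by mistake, 3 were higher and 0 lower, and after quantile normalization 1. Over all tested genes 15.9% were higher and 2.35% lower. The list median was 0.19, falling to 0.10 after centring and 0.09 after quantile normalization.

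The list of arginine and extracellular nucleotide metabolism genes had a median change of 0.68 over 6 tested genes. Of these, 4 were higher and 0 lower, beside 15.9% and 2.35% of all tested genes. The 4 include the receptors P2ry2 and P2ry6, which are not enzymes and were already counted on the complement and chemoattractant list. Arg1, arginase, was at 12.3, 10.2, 11.3, 9.36 and 9.59 FPKM in the silica lungs and 3.81, 4.70, 3.35, 3.39 and 5.20 FPKM in the air lungs. Both groups were tight beside the gap between them, and the change was 1.28 ± 0.18 (SE, limma adjusted p = 7.42e-07). Enpp3, an enzyme that hydrolyses extracellular nucleotides, was at 21.1, 16.3, 21.2, 16.05 and 14.5 FPKM in the silica lungs and 8.57, 9.08, 8.58, 9.87 and 9.90 FPKM in the air lungs, with a change of 0.90 ± 0.16 (SE, limma adjusted p = 4.16e-05). Its relative Enpp1 was not called as deposited (-0.17 ± 0.06, limma adjusted p = 0.0521) but was called lower after centring (-0.26, 0.00396) and quantile normalization (-0.27, 0.00314). Not called either was Oat, ornithine aminotransferase (-0.00 ± 0.08, 0.979).

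Among genes of energy metabolism, 3 of 4 tested genes of the glycolysis list were higher and 0 lower, beside 15.9% and 2.35% of all tested genes. After quantile normalization 2 were higher. The 3 include Mpc1, which is also counted among the mitochondrial respiration genes below. Gpi, the list member not called, changed by 0.18 ± 0.07 (SE, limma adjusted p = 0.0803). Ldha, lactate dehydrogenase A, was at 39.7, 35.9, 38.2, 36.9 and 38.6 FPKM in the silica lungs and 28.5, 26.7, 22.9, 25.3 and 23.4 FPKM in the air lungs. The gap between the groups was wider than the range of either, with a change of 0.57 ± 0.10 (SE, limma adjusted p = 3.23e-05). Mpc1, the mitochondrial pyruvate carrier, rose by 0.37 ± 0.08 (SE, limma adjusted p = 0.00111) and Aldoa, aldolase, by 0.31 ± 0.09 (SE, limma adjusted p = 0.00908), the latter not called after quantile normalization (adjusted p = 0.34). Of 17 mitochondrial respiration genes 3 were higher and 0 lower, a share near the 15.9% of all tested genes, and after quantile normalization 1 was higher. The 3 were Mpc1, Ucp2 and Mrps12, a mitochondrial ribosomal protein gene (0.43 ± 0.11 (SE, limma adjusted p = 0.00464), 0.053 adjusted after quantile normalization). Among 12 lipid and apolipoprotein genes 1 was higher and 0 lower, beside 15.9% and 2.35% of all tested genes. After each rescaling 1 was higher and 1 lower. The higher gene was Dgat2, the last enzyme of triglyceride synthesis, at 10.8, 9.49, 10.98, 10.2 and 9.97 FPKM in the silica lungs and 7.55, 6.72, 5.18, 6.28 and 6.66 FPKM in the air lungs, a change of 0.64 ± 0.15 (SE, limma adjusted p = 0.00239). Apobr, the receptor through which macrophages take up lipoproteins, was not on that list and was at 8.32, 7.22, 7.69, 6.39 and 6.56 FPKM in the silica lungs and 4.02, 3.93, 4.10, 4.14 and 4.26 FPKM in the air lungs. The air values were nearly equal and below all silica values, and the change was 0.75 ± 0.12 (SE, limma adjusted p = 2.8e-06). Apoe was not called (127.8 ± 9.80 against 121.9 ± 14.1 FPKM, SD, n = 5, adjusted p = 0.829).

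Cell cycle genes were higher in 3 of 11 tested, and 0 were lower, beside 15.9% and 2.35% of all tested genes. The list median was 0.16, and 0.07 after each rescaling, with 3 genes still higher. Mki67, the proliferation marker, was low but separated, at 2.88, 2.74, 2.78, 2.70 and 2.34 FPKM in the silica lungs and 1.35, 1.41, 1.51, 1.58 and 1.61 FPKM in the air lungs, and rose by 0.68 ± 0.13 (SE, limma adjusted p = 0.00015). Prc1, a protein of the dividing spindle, was at 4.96, 4.30, 4.69, 3.64 and 3.98 FPKM in the silica lungs and 1.83, 2.91, 2.15, 2.25 and 2.37 FPKM in the air lungs, also without overlap, with a change of 0.79 ± 0.14 (SE, limma adjusted p = 3.73e-05). Kif22, a mitotic kinesin, rose by 0.52 ± 0.15 (SE, limma adjusted p = 0.00931), with overlap, and was not called without silica replicate 1 (adjusted p 0.0541).

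Other leading rises were on none of the lists described. Meis3, a homeobox transcription factor gene, was at 5.36, 4.82, 5.43, 4.14 and 3.88 FPKM in the silica lungs and 2.31, 1.67, 1.76, 2.52 and 2.22 FPKM in the air lungs. The groups did not overlap, and the change was 1.01 ± 0.22 (SE, limma adjusted p = 0.000552). Srd5a1, a steroid 5-alpha reductase, was at 3.57, 3.56, 3.92, 3.00 and 2.70 FPKM in the silica lungs and 1.94, 1.87, 1.65, 1.96 and 1.75 FPKM in the air lungs, also without overlap, with a change of 0.72 ± 0.13 (SE, limma adjusted p = 6.18e-05). Prodh2, a hydroxyproline dehydrogenase, rose by 0.83 ± 0.16 (SE, limma adjusted p = 0.000149), although silica replicate 5 lay just under air replicate 1.

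Genes called as deposited on the NF-kB and interferon lists were not called after either rescaling. Of 12 tested genes of the NF-kB and TNF list 3 were higher and 0 lower, beside 15.9% and 2.35% of all tested genes. The list median was 0.19, and 11 of the 12 changes were above 0. After either rescaling limma called 0 higher and 1 lower, with 4 at an unadjusted p below 0.05. Relb, an NF-kB subunit, changed by 0.29 ± 0.11 (SE, limma adjusted p = 0.0471), Nfkbib, an inhibitor of NF-kB, by 0.34 ± 0.10 (SE, limma adjusted p = 0.018), and Il18bp, which neutralises interleukin 18, by 0.43 ± 0.14 (SE, limma adjusted p = 0.0311). Relb was lost without any 1 of silica lungs 1, 3 and 4 and air lungs 1, 2, 3 and 5, Nfkbib without silica replicate 2, and Il18bp without any 1 of silica lungs 1, 2 and 3 and air lungs 2 and 5 (highest adjusted p 0.161, 0.0563 and 0.101). Of 13 interferon and inflammasome genes 1 was higher, beside 15.9% of all tested genes. It was the RNA exonuclease gene Isg20 (0.36 ± 0.13 (SE, limma adjusted p = 0.0426)). Isg20 was not called after either rescaling or without any 1 of silica lungs 2, 3 and 4 and air lungs 1, 3, 4 and 5 (highest adjusted p 0.125).

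Growth factor and matrix genes did not move in 1 direction. Of 19 tested, 4 were higher, Plaur, Tgfb1, Axl and Cpxm2, and 1 lower, beside 15.9% and 2.35% of all tested genes. The list median was -0.04. After centring 3 were higher and 5 lower (median -0.13), and after quantile normalization 3 and 6 (median -0.13). Tgfb1, transforming growth factor beta 1, was at 5.12, 4.25, 4.32, 5.13 and 4.49 FPKM in the silica lungs and 2.13, 3.46, 2.75, 2.43 and 4.13 FPKM in the air lungs. The highest air lung, replicate 5, lay just under the lowest silica lung, and the change was 0.60 ± 0.12 (SE, limma adjusted p = 0.000283). Axl, a receptor for cell debris on macrophages, rose by 0.39 ± 0.08 (SE, limma adjusted p = 0.000681). Cpxm2, a secreted carboxypeptidase-like protein, rose by 0.40 ± 0.13 (SE, limma adjusted p = 0.0222), and was not called after centring (adjusted p = 0.056) or without silica lung 4 or air lung 3 (highest adjusted p 0.0796). Rspo3, a ligand that strengthens Wnt signalling, is not on the list and was chosen after its values were seen. It was low, at 1.02, 0.542, 0.558, 0.992 and 0.715 FPKM in the silica lungs and 0.310, 0.277, 0.159, 0.0927 and 0.156 FPKM in the air lungs, without overlap, and rose by 0.85 ± 0.19 (SE, limma adjusted p = 0.000885). Smoc2, a matricellular protein, fell by 0.22 ± 0.07 (SE, limma adjusted p = 0.0189) on the log2 scale, and was not called without any 1 of silica lungs 4 and 5 and air lung 1. Mfge8, which bridges dying cells to phagocytes, was at 78.0, 84.9, 79.8, 81.4 and 74.2 FPKM in the silica lungs and 93.3, 91.1, 90.1, 89.1 and 88.9 FPKM in the air lungs. Every silica lung was below every air lung, but the change was not called as deposited (-0.18 ± 0.08 (SE, limma adjusted p = 0.106)). It was called lower after centring (-0.27, adjusted p = 0.01) and quantile normalization (-0.44, 0.016).

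**Figure D3:**
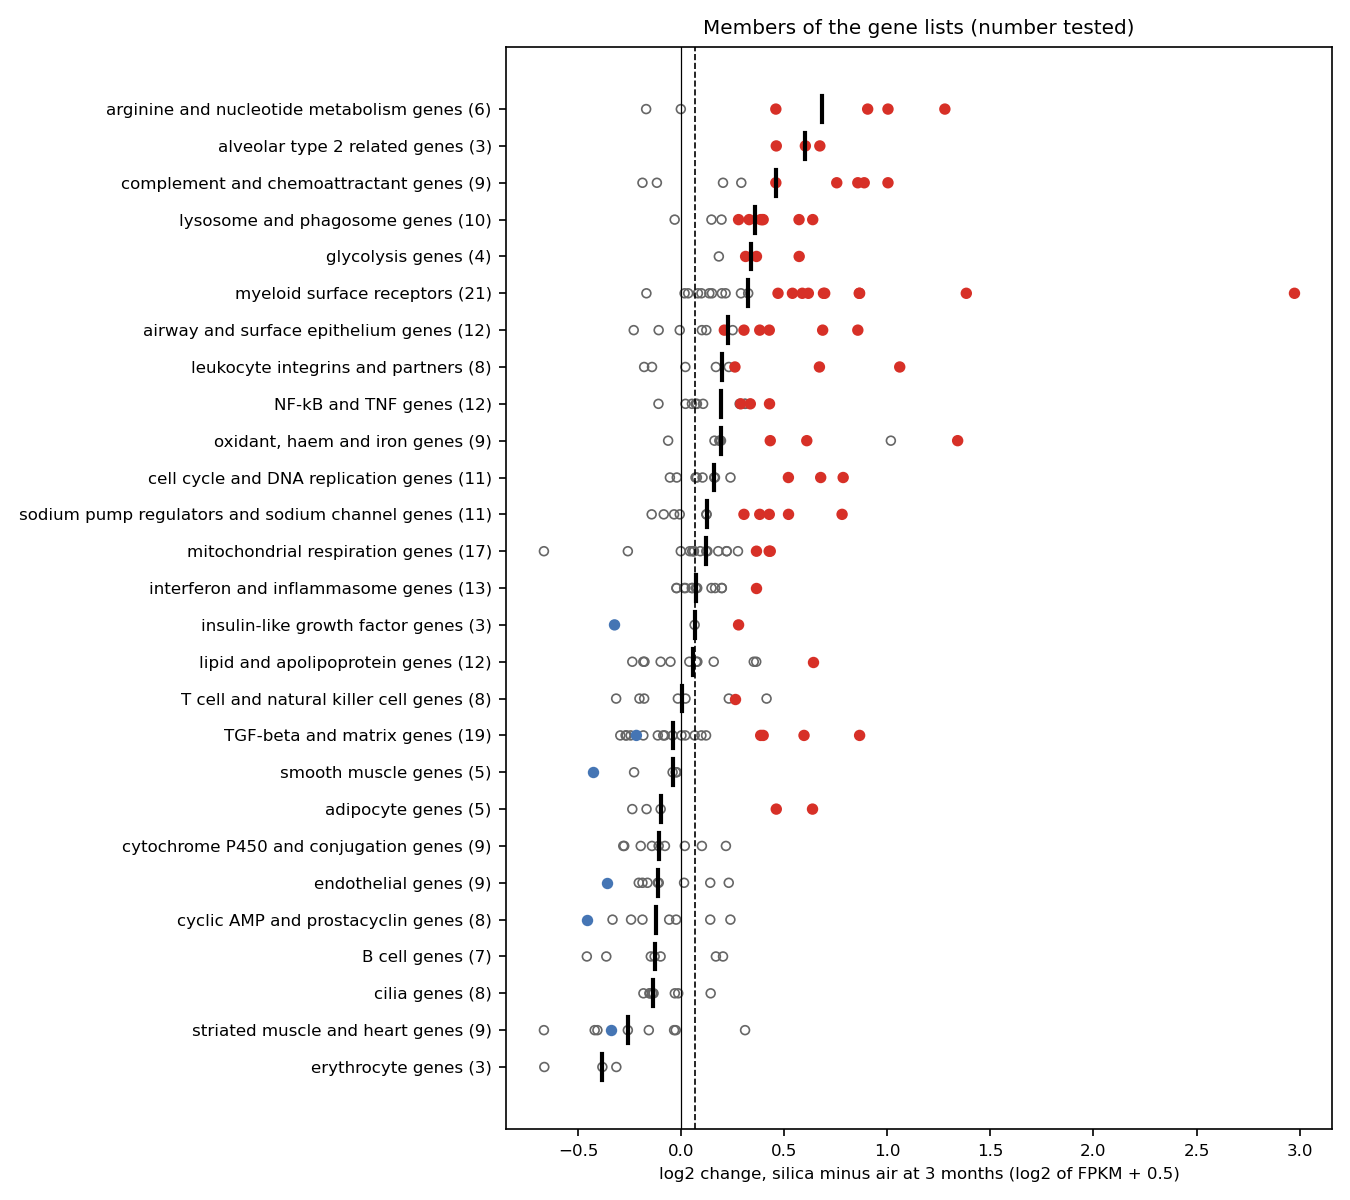
Log2 change at 3 months of each tested member of the gene lists with at least 3 tested genes, silica minus air, with the number tested in parentheses. Red and blue points passed the test as higher or lower, open points did not, black bars are list medians and the dashed line is the median of all tested genes, 0.07. The medians run from -0.38 for erythrocyte genes to 0.68 for arginine and nucleotide metabolism genes, a list that includes the receptors P2ry2 and P2ry6.

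As deposited, falls were few and small apart from Dbp. Dbp, a clock-controlled transcription factor, was at 1.42, 2.37, 3.08, 3.15 and 2.12 FPKM in the silica lungs and 3.62, 4.58, 5.17, 6.34 and 7.95 FPKM in the air lungs. The highest silica lung, at 3.15 FPKM, was below the lowest air lung, and both groups varied more than 2-fold within themselves. The change was -1.04 ± 0.27 (SE, limma adjusted p = 0.00557). Its partner on the clock list, Arntl (BMAL1), was at 8.39, 6.60, 6.62, 6.40 and 6.18 FPKM in the silica lungs and 7.55, 5.37, 6.30, 5.59 and 4.37 FPKM in the air lungs and was not called (0.22 ± 0.12 (SE, limma adjusted p = 0.178)). The sources used here do not give the time of day at which lungs were taken, and its part in the result was not tested.

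Adcy2, an adenylyl cyclase that makes cyclic AMP, was at 3.08, 3.22, 3.88, 3.12 and 3.32 FPKM in the silica lungs and 5.06, 4.07, 4.74, 5.06 and 4.80 FPKM in the air lungs. The groups did not overlap, and the change was -0.46 ± 0.13 (SE, limma adjusted p = 0.00931). Of 8 tested genes of cyclic AMP and prostacyclin signalling it was the 1 called lower as deposited, beside 2.35% of all tested genes. Pde2a, a phosphodiesterase, was lower without overlap but not called (-0.33 ± 0.13 (SE, limma adjusted p = 0.0551)). After centring 2 of the 8 were called lower, Adcy2 and Pde2a (limma adjusted p of Pde2a 0.0159), and after quantile normalization 3, with Akap12, an anchoring protein of protein kinase A, as the third (0.0339). Igf1r, the receptor of insulin-like growth factors, was at 3.01, 2.62, 2.86, 2.77 and 2.63 FPKM in the silica lungs and 3.16, 4.12, 3.40, 3.52 and 3.85 FPKM in the air lungs, without overlap, with a change of -0.32 ± 0.10 (SE, limma adjusted p = 0.0142). Tjp1, the tight junction protein ZO-1, was at 27.9, 28.1, 27.5, 28.2 and 24.3 FPKM in the silica lungs and 27.0, 34.0, 35.0, 34.2 and 34.7 FPKM in the air lungs. Air replicate 1 lay among the silica values, and the change was -0.27 ± 0.08 (SE, limma adjusted p = 0.00908). Synm, an intermediate filament protein of muscle, was at 15.4, 17.5, 17.3, 17.0 and 13.0 FPKM in the silica lungs and 16.9, 22.1, 24.5, 23.6 and 21.9 FPKM in the air lungs, with overlap through air replicate 1, and changed by -0.43 ± 0.13 (SE, limma adjusted p = 0.0142). These 4 genes and Dbp were called under both rescalings and without any 1 library.

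The other named falls were less stable. Myct1, an endothelial gene, was at 6.60, 7.35, 7.78, 7.11 and 7.97 FPKM in the silica lungs and 9.88, 9.30, 10.02, 9.10 and 9.53 FPKM in the air lungs. The groups did not overlap, and the change was -0.36 ± 0.12 (SE, limma adjusted p = 0.0362), lost without any 1 of silica lungs 1, 2 and 4 and air lungs 1, 3 and 5 (highest adjusted p 0.0907). As deposited it was the only called gene of 9 on the endothelial list, beside 2.35% of all tested genes called lower. The list median was -0.11. After centring 2 were lower (median -0.20) and after quantile normalization 3 (median -0.27). Ehd2, a protein of caveolae, was called under both rescalings (limma adjusted p = 0.0307 and 0.00624) and Rasip1, a protein of vessel formation, after quantile normalization (0.0245). Alpk3, a kinase of muscle, fell by 0.34 ± 0.10 (SE, limma adjusted p = 0.0161), and was lost without any 1 of silica lungs 2 and 4 and air lung 1. Plekhg1 fell by 0.34 ± 0.11 (SE, limma adjusted p = 0.0326), lost without any 1 of silica lungs 2, 4 and 5 and air lungs 2 to 5. Chst15, a chondroitin sulfotransferase, fell by 0.30 ± 0.11 (SE, limma adjusted p = 0.0468), lost without any library except silica replicate 3. Zfp40 fell by 0.26 ± 0.09 (SE, limma adjusted p = 0.0453), lost without any 1 of silica lungs 1, 2 and 3 and air lungs 2, 3 and 4. The highest adjusted p on leaving out 1 library was 0.0638, 0.108, 0.128 and 0.145 for these 4 genes.

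Genes of other tissues and cells varied between lungs. The summed FPKM of 6 erythrocyte genes was 1004 to 1503 in silica and 1379 to 2970 in air, and Hbb, a beta globin, was at 1127, 1318, 887, 1260.3 and 1284 FPKM in the silica lungs and 2567, 1434, 1291, 1346 and 1257 FPKM in the air lungs. Air replicate 1 was far above the other lungs. Of 3 tested erythrocyte genes limma called 0, with 1 at an unadjusted p below 0.05, and 2 of the 6 were listed at 0 in all 10 lungs. The summed FPKM of 16 striated muscle and heart genes was 32.8 to 213 in silica and 29.4 to 168 in air. Cox8b, a respiratory subunit of striated muscle, was at 5.90, 7.73, 4.04, 4.27 and 42.6 FPKM in the silica lungs and 32.3, 18.1, 15.6, 5.72 and 7.61 FPKM in the air lungs. Silica replicate 5 and air replicates 1 to 3 were high, the groups overlapped, and of 9 tested muscle genes 1 (Alpk3) fell, beside 2.35% of all tested genes. Their part in the fall of Alpk3 and Synm was not tested. Of 7 tested B cell genes limma called 0, with 1 at an unadjusted p below 0.05, and Spib, a transcription factor of B cells, was not called (-0.46 ± 0.22 (SE, limma adjusted p = 0.148)). Of 8 T cell and natural killer cell genes 1 was higher, Itgal, beside 15.9% of all tested genes. Nkg7, a granule protein of cytotoxic lymphocytes, was not called (-0.32 ± 0.14 (SE, limma adjusted p = 0.121)). After each rescaling 0 of these 8 were higher and 1 lower: Itgal was not called, and Nkg7 was (limma adjusted p = 0.0323 after centring and 0.0307 after quantile normalization). The 1 mesothelial gene in the table summed to at most 0.25 FPKM in silica and 0.36 in air. Without air replicate 1 and silica replicate 5 together, an alternative chosen after seeing the data, 277 genes were called, 247 higher and 30 lower.

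The other times show how far the 3-month pattern was present earlier and later, each against its own air group. At 1 month 108 genes were higher (8.45%), and 66 of these were also higher at 3 months, 61.1% of the 1-month and 32.5% of the 3-month genes. At 6 months 271 were higher (21.2%), and 150 were shared, 55.4% of the 6-month and 73.9% of the 3-month genes. Of the 30 genes lower at 3 months, 1 was also lower at 1 month and 11 at 6 months. A total of 34 genes, 26 higher and 8 lower, passed the threshold at 3 months and at no other time, which does not show that their change differed between times.

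Tests of the difference itself called few genes. The silica effect at 3 months differed from that at 1 month in 2 genes (0.156%, with 129 at an unadjusted p below 0.05), from that at 6 months in 3 (0.235%, 112 unadjusted) and from the mean of the other 5 times in 10 (0.782%, 125 unadjusted). These counts depended on single libraries and on the fit: the count against 1 month became 8 without air replicate 1. Against 6 months limma called 0 without silica replicate 1 (109 unadjusted), 1 without any 1 of silica lungs 3 and 4 and air lungs 2, 3 and 4, 7 after quantile normalization and 16 with only the groups compared. Against the mean of the other times 6 were called without silica lung 1 or air lung 3. Dbp was called in all 3 tests. Its air mean was highest at 3 months, 5.53 FPKM beside 1.88 at 1 month and 1.96 at 6 months, and its silica mean lowest, 2.43 FPKM beside 3.96 and 3.98. Silica lungs were thus lower than air at 3 months, and higher at 1 month (0.88 ± 0.27), 6 months (0.84 ± 0.27) and 9 months (1.15 ± 0.29), all called by limma (adjusted p = 0.0327, 0.0178 and 0.00179). The difference between the 3-month and the 1-month effect was -1.92 ± 0.39 (SE, limma adjusted p = 0.00561), against 6 months it was -1.87 ± 0.39 (SE, limma adjusted p = 0.0165), and against the mean of the other times -1.77 ± 0.30 (SE, limma adjusted p = 0.000193). The call against 6 months was lost without silica replicate 1 (adjusted p = 0.0558).

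Among called genes with a symbol, Cd177 had a rise at 3 months that exceeded the mean of the other times most, by 1.17 ± 0.25 (SE, limma adjusted p = 0.00461). Its silica mean was highest at 3 months, 45.0 ± 4.42 FPKM beside 29.1 ± 0.67 at 1 month, and its air mean lowest, 5.33 FPKM beside 6.69 to 12.9 at the other times. Against 1 month and 6 months singly the difference was not called (0.87, adjusted p = 0.245, and 1.13, 0.156). Esr1, estrogen receptor alpha, went the other way. It was at 0.639, 0.363, 0.730, 0.509 and 0.565 FPKM in the silica lungs and 0.238, 0.423, 0.755, 0.320 and 0.476 FPKM in the air lungs at 3 months, overlapping, with a change of 0.18 ± 0.28 (SE, limma adjusted p = 0.691), whereas at 6, 9, 12 and 18 months the change was 1.68, 2.57, 2.40 and 2.01. The difference from the mean of the other times was -1.55 ± 0.30 (SE, limma adjusted p = 0.00233), and it was not called against 6 months alone (adjusted p = 0.0973). Lilrb4 was less raised at 3 months than at 6 months, where silica lungs averaged 32.2 ± 1.82 FPKM, a difference of -1.18 ± 0.27 (SE, limma adjusted p = 0.0379). That call was lost without any 1 of silica lungs 1, 3 and 4 and air lungs 2, 3 and 4 (highest adjusted p = 0.107).

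Arntl and Il4r, the interleukin 4 receptor chain, had effects at 3 months above the mean of the other times, by 0.55 ± 0.13 (SE, limma adjusted p = 0.0137) and 0.50 ± 0.12 (SE, limma adjusted p = 0.0239). In both genes the change was above 0 at 3 months and below 0 at the other 5 times. The 3-month change of Il4r was itself not called, with overlap (0.20 ± 0.11 (SE, limma adjusted p = 0.209)), like that of Arntl. The call of Arntl was lost without silica lung 1 or air lung 5 (highest adjusted p = 0.0743), and that of Il4r without any 1 of silica lungs 2 and 4 and air lungs 3, 4 and 5 (highest adjusted p = 0.121).

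**Figure D4:**
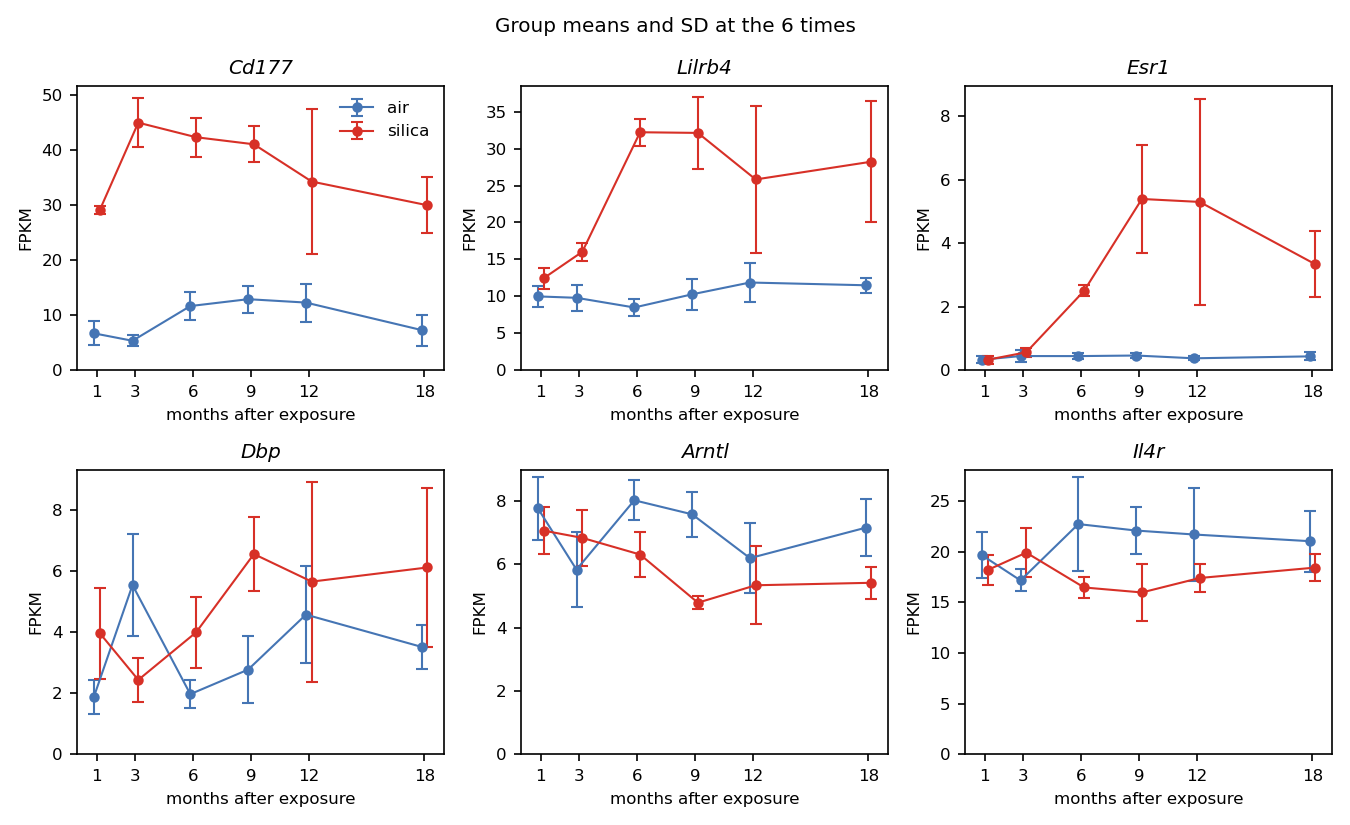
Group mean FPKM of 6 genes at each of the 6 times after exposure, with SD bars, in air (blue) and silica (red), 5 rats per group except 4 in air at 9 months. Cd177 is farthest above air at 3 months, Esr1 is close to air at 1 and 3 months, and Dbp is below air at 3 months and at no other time.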

How the data were processed

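Lung RNA of 59 rats in 12 groups (2 treatments, 6 times) was sequenced after ribosomal RNA depletion with a stranded kit, per the labels' protocols, and 10 libraries of 3 months are described. Per the submitters' processing notes the tools were Cufflinks 2.1.1, TopHat2 2.0.9, Trimmomatic 0.35, Bowtie2 2.2.9 and bcl2fastq 2.19. The genome build and annotation are not given in the sources used here. Values that the authors deposited were FPKM, not counts. The table had 2888 entries, and 1 incomplete entry (31 values) was left out. Depth was only inferred, by fitting an offset per library to 261 entries above 0 in few libraries. Of their 1997 values above 0, 63.7% then lay within log2 0.1 of the median of their entry. Replicate numbers follow accession order and pair nothing. The labels describe separate rats.

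Genes reaching FPKM 1 in 4 or more libraries were tested with limma 3.58.1 (R 4.3.3, intensity trend) on log2(FPKM + 0.5), which understates changes of low genes. All 59 libraries shared 1 fit with a mean per group and 47 residual degrees of freedom. P-values were adjusted by Benjamini-Hochberg over 1278 genes, threshold 0.05, of which 272 have placeholder or small RNA names. The median SE was 0.10. On simulated data of 1278 genes, 90 of 100 changes of 0.5 and 96 of 100 of 1 were recovered, with 14 false calls among the unchanged genes. The simulated data held as many rises as falls and no shift of whole libraries, so they cannot judge the scaling. Alternatives were other pseudocounts, no filter, 2 rescalings, no trend, fewer groups and leaving out libraries. RefSeq GRCr8 supplied names and promoters. Python 3.11.15 and matplotlib 3.10.9 drew plots.

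Named genes were the 20 largest rises and 10 largest falls among called genes with a symbol and mean FPKM 1 or more, up to 4 of smallest p and every called member per list, up to 4 per direction in each test between times, and 20 given whatever their values. Rspo3, Hps5, Lilrb4, Trnae-cuc and the LOC entries were added after their values were seen. The members and lists were chosen with earlier results of these data known.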

Additional observations from a re-analysis of the deposited data

Results flagged for a closer look

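In 18 of 254 groups of 5 values examined, 1 library lay far from the other 4, where chance alone gives about 1 in 20. The FPKM sum was 31740.2 in silica replicate 5, with LOC102553223 at 17114 FPKM, and 15913 in air replicate 1, with LOC102553223 at 117 FPKM. Without that entry the sum of silica replicate 4, 14978 FPKM, was apart from the other silica lungs. Air replicate 1 was high in Hbb (2567 FPKM) and Hbb-b1 (364 FPKM) and low in Tjp1 (27.0 FPKM). Silica replicate 5 was high in Cox8b (42.6 FPKM) and Csrp3 (5.42 FPKM), both striated muscle genes, and low in Igf2r (20.9 FPKM), Mrps12 (8.28 FPKM) and Tjp1 (24.3 FPKM). Single values apart were Trnae-cuc in air replicate 5 (446.7 FPKM), Cxcl17 low in air replicate 3 (33.0 FPKM), Prcp in air replicate 4 (10.3 FPKM), Pde2a in air replicate 3 (4.91 FPKM) and Arntl in silica replicate 1 (8.39 FPKM).

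The silica effect at 3 months differed from that at another time in a test of the difference itself for these genes, as log2 differences. Against 1 month it was 8.21 for LOC102553223 and -1.92 for Dbp. Against 6 months it was -1.18 for Lilrb4, 1.23 for LOC103691058 and -1.87 for Dbp. Against the mean of the other times it was 5.08 for LOC102553223, 1.36 for LOC103691058, 1.17 for Cd177, 1.15 for LOC100909700, 0.55 for Arntl, 0.50 for Il4r, 0.42 for the placeholder entry LOC102546678, named after its value was seen, -0.29 for L3mbtl3, -1.55 for Esr1 and -1.77 for Dbp. The call of LOC102553223 against the mean of the other times was lost without any 1 of silica lungs 1 and 5 and air lungs 3, 4 and 5 (highest adjusted p 0.131), and its call against 1 month was lost when the fit held only the groups compared. L3mbtl3, which encodes a chromatin reader, was at 2.41 ± 0.15 FPKM in silica and 2.79 ± 0.18 FPKM in air (SD, n = 5), and its call was lost without any 1 library except silica lung 4 or air lung 2. LOC103691058 against 6 months was lost without any 1 library except silica lung 5 or air lung 5.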

How the results depend on the processing

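No paired analysis was possible because the labels give no replicate numbers that the groups share. The count of higher genes moved from 203 to 112 after median centring and 106 after quantile normalization, and that of lower genes from 30 to 121 and 132. Leaving out 1 library gave 163 to 258 called genes, 145 to 238 higher and 14 to 34 lower. For the effect at 3 months against 1 month, leaving out 1 library gave 2 to 8 genes, 8 of them without air replicate 1. Against 6 months the count of 3 became 7 after quantile normalization, 16 with only the groups compared, and 5 without air replicate 1 and silica replicate 5, chosen after seeing the data. Leaving out 1 library there gave 0 to 4, with limma calling 0 without silica replicate 1 (109 at an unadjusted p below 0.05) and 1 without any 1 of silica lungs 3 and 4 and air lungs 2, 3 and 4. Against the mean of the other times it gave 6 to 11 beside 10, with 6 without silica lung 1 or air lung 3. The cause was not tested. Of 124 named genes, 78 were called, 54 of them under every setting and 60 with each library left out in turn, and none changed sign while called. FPKM without counts gives no depth per value.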

Other observations

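Motile cilia and detoxifying enzymes mark the airway lining, and no tested gene of either list was called as deposited. The lists as wholes were not tested. Of 8 tested cilia genes limma called 0, with 0 at an unadjusted p below 0.05, 7 changes below 0 and a median of -0.14. Dnaaf3, an assembly factor of ciliary dynein arms, was at 0.949 ± 0.099 FPKM in silica and 1.13 ± 0.32 FPKM in air (SD, n = 5), with overlap. Of 9 tested cytochrome P450 and conjugation genes limma called 0, with 1 at an unadjusted p below 0.05 and a median of -0.11. After each rescaling 1 of these 9 was lower, not the same gene.

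Adipocyte genes were mixed, with 2 of 5 tested higher and 0 lower, beside 15.9% and 2.35% of all tested genes, and a median of -0.10. The members that rose were Dgat2 and Cebpa, both also expressed in lung cells, while Lipe and Slc7a10 were not called. Siglec8, the 1 tested gene of the mast cell and eosinophil list, is also on the myeloid list. It was at 5.09, 4.53, 4.75, 4.72 and 3.85 FPKM in the silica lungs and 3.25, 2.51, 3.32, 2.92 and 2.47 FPKM in the air lungs, without overlap. Of 5 tested smooth muscle genes 1, Synm, was called lower, beside 2.35% of all tested genes. All 5 changes were below 0 with a median of -0.04. After quantile normalization 2 were lower.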
